A study of Mus musculus with 8 samples.

Results

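Nos2 encodes inducible nitric oxide synthase, the enzyme with which activated macrophages make nitric oxide from arginine. The Nos2 locus was taken as positions 78680000 to 78820000 of chromosome 11 on mm8, a window of 140 kb. It was chosen because it holds position 78737090, a tall RNA polymerase II (Pol II) position of macrophages stimulated for 4 h that has no counterpart in untreated cells. The window held 175 of the 364537 positions and clusters in the 8 lists of the series. The bounds of Nos2 on mm8 were not analysed here, so the window could not be checked against a gene model of its own build. In the RefSeq annotation of GRCm38.p6, another build, the neighbours of Nos2 in chromosome order are Lyrm9 and the pseudogenes Gm18950 and Gm19741 on the lower side. Lgals9, which encodes the sugar-binding protein galectin-9, and Ksr1, a scaffold of the Ras and MAP kinase pathway, follow on the higher side.

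The lists came from chromatin immunoprecipitation and sequencing (ChIP-seq), which counts DNA fragments bound to a protein or histone mark along the genome. The cells were primary macrophages grown from the bone marrow of female Fvb mice 6 to 8 weeks old, with no genetic alteration given in the labels. They were untreated (0 h) or had received lipopolysaccharide (LPS) together with interferon gamma (IFNγ), at doses not given in the sources used here. Pol II was mapped at 0, 2 and 4 h, the histone marks H3K4me3 and H3K27me3 at 0 and 4 h, and Jmjd3 at 2 h, each in 1 library. With no replicates, differences between times were not tested and carry no p-value.

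Nos2 is silent in resting macrophages and is a standard marker of their activation by LPS and IFNγ. Pol II along a gene reports transcription, H3K4me3 marks active or poised promoters, and H3K27me3 is the mark that Polycomb complexes lay on repressed genes. Jmjd3, the product of Kdm6b, is an H3K27 demethylase whose own gene is induced by LPS.

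The value of each position or cluster is the overlap count given by the authors, that is, how many fragments overlapped there. Across the whole lists the lowest count was 9 to 11, and the median count was 14 (0 h), 17 (2 h) and 19 (4 h) for Pol II. It was 10 for Jmjd3, 12 (0 h) and 13 (4 h) for H3K27me3, and 78 (0 h) and 97 (4 h) for H3K4me3. The highest count was 351 (0 h), 402 (2 h) and 401 (4 h) for Pol II and 96 for Jmjd3. It was 397 (0 h) and 401 (4 h) for H3K27me3, and 361 (0 h) and 365 (4 h) for H3K4me3. Whether the counts have an upper limit was not tested. Each library had over 10000000 tags that mapped uniquely, per the labels, and its exact depth was unknown. Counts of different libraries are given beside each other with no scaling, and a ratio between 2 lists also holds the unknown ratio of their depths. Distances below are from position 78737090, towards higher coordinates unless stated.

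Before stimulation the Pol II list left a large part of this locus empty. At 0 h the list held 7 positions in the window, where 21.8% of 11709 windows of 140 kb across the genome held at least as many. None lay in the first 36 kb on the higher side of position 78737090 or anywhere on the lower side. Of these 7, 4 lay together: position 78773997 with a count of 14, 78777130 with 25, 78778310 with 17 and 78778893 with 18. The other three were 78790609 with 10, 78799350 with 16 and 78800987 with 39. The highest of the 7, at 63.9 kb, lay in the tallest H3K4me3 cluster of untreated cells in the window. Of the 7, 1 had no Pol II position under 500 bp away at 2 h, where 48.2% of the whole 0 h list had none, and 1 had none at 4 h, where 43.4% had none.

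At 2 h the window held 53 Pol II positions with a median count of 202, and at 4 h it held 54 with a median of 184. The count at position 78737134 was 359 at 2 h, a value reached by 0.0699% of that list, and at position 78737090 it was 326 at 4 h, reached by 0.134%. No Pol II position was listed within 36 kb of either at 0 h. Of the 53 positions at 2 h, 47 had no 0 h position under 500 bp away, where 49.6% of the whole list had none, and of the 54 at 4 h, 48 had none, where 45.2% of the whole list had none. The window was chosen from this contrast, so these counts describe it and support nothing.

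**Figure D1:**
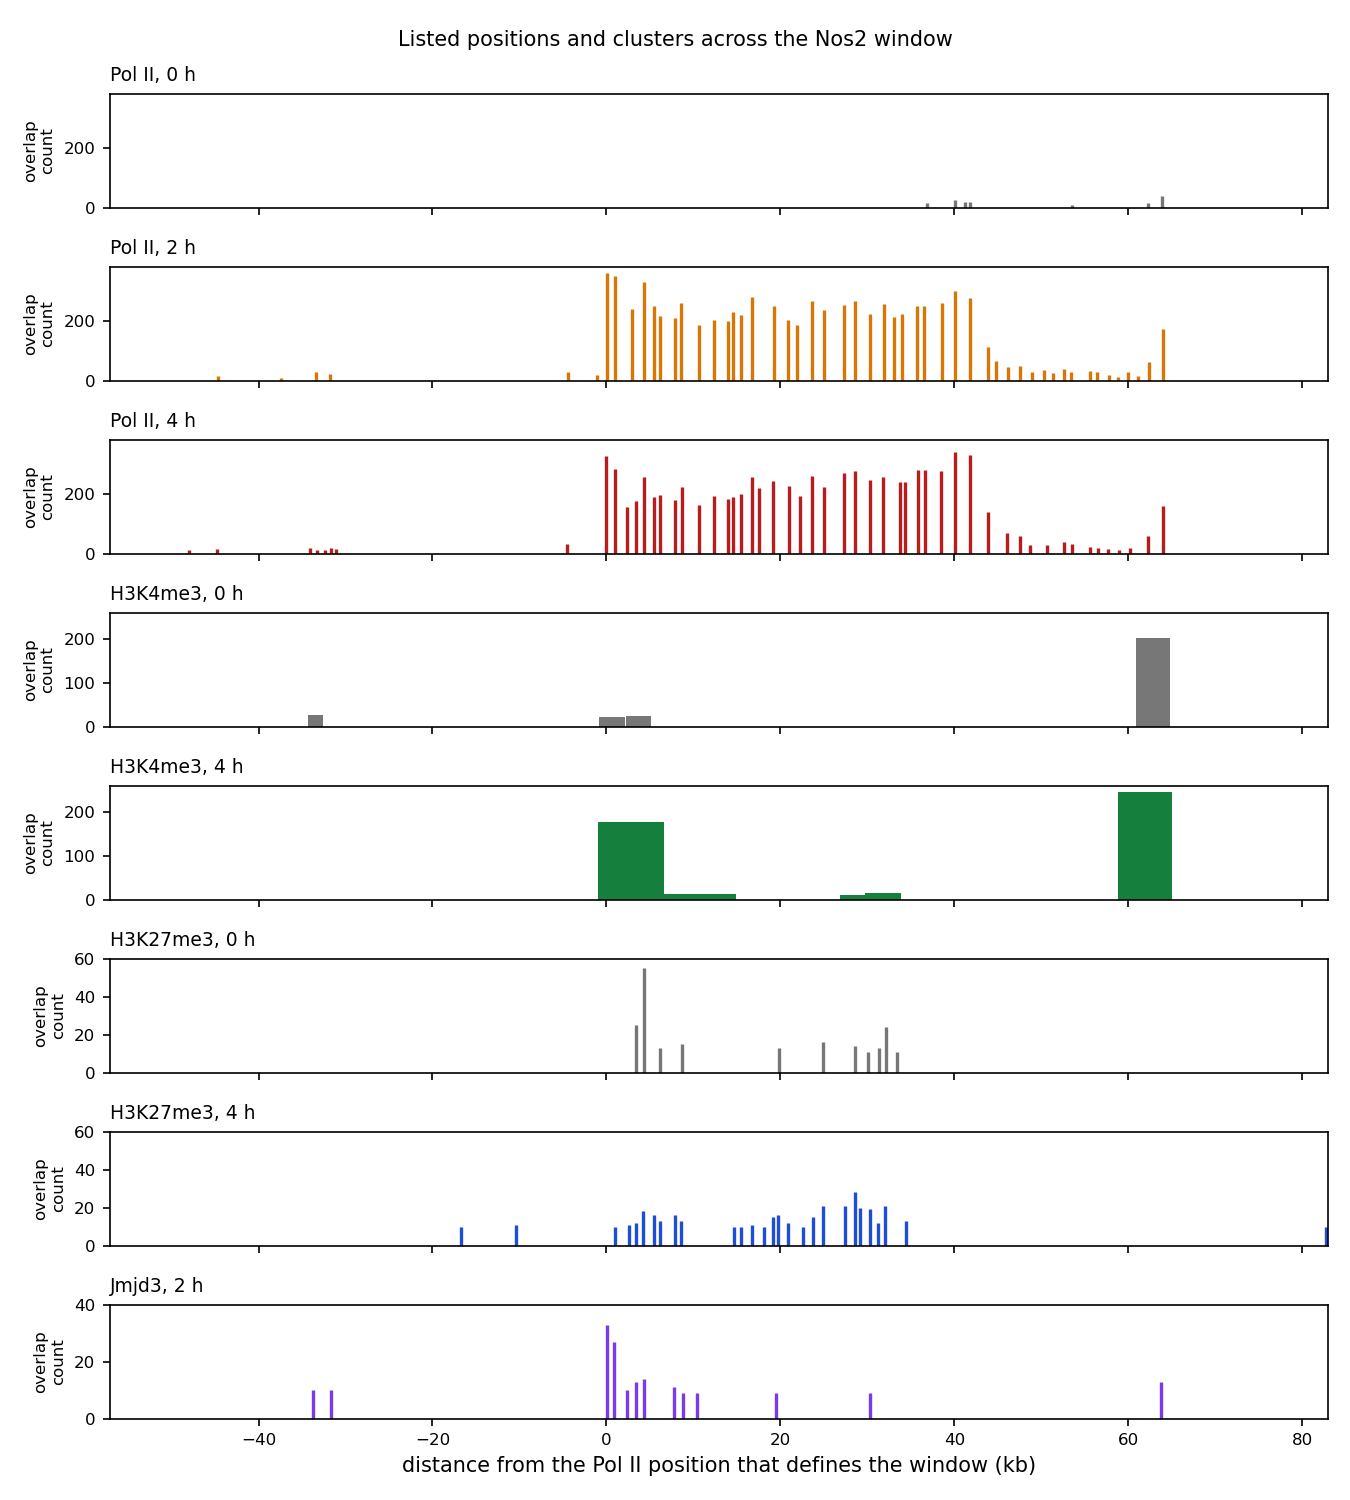
Overlap count of every listed position (vertical lines) or cluster (bars as wide as the cluster) in the 140 kb window, 1 panel per library, against the distance in kb from position 78737090. Pol II counts of 155 to 359 filled the first 42 kb at 2 and 4 h, where the 0 h list had 4 positions of 14 to 25, and 11 of 11 H3K27me3 positions at 0 h and 25 of 28 at 4 h lay in the first 34.4 kb.

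Along the window, Pol II at 2 and 4 h had the same outline, read here in steps of 10 kb. From 78680000 to 78730000 the counts were low, at 10 to 30 in 4 positions at 2 h and 11 to 19 in 7 positions at 4 h. From 78730000 to 78740000 the list held 4 positions at each time, from 17 to 359 at 2 h and from 31 to 326 at 4 h. This step holds the sharp rise, since the low counts belonged to positions on the lower side of position 78737090 and the next 2 positions reached 359 and 347 at 2 h and 326 and 282 at 4 h.

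Between 78740000 and 78780000 the list was dense and high at both times. From 78740000 to 78750000, 8 positions ranged from 185 to 330 at 2 h and 8 from 163 to 254 at 4 h. From 78750000 to 78760000, 7 positions ranged from 184 to 278 at 2 h and 8 from 181 to 254 at 4 h. No position in this stretch was near the lowest count of its list. From 78760000 to 78770000, 6 positions ranged from 223 to 265 at 2 h and 6 from 223 to 276 at 4 h. From 78770000 to 78780000, 7 ranged from 211 to 299 at 2 h and 7 from 237 to 337 at 4 h. The tallest Pol II position of the window at 4 h was thus not at the start of the stretch but 40 kb on, at position 78777117 with a count of 337.

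Past 42 kb the counts fell within a few kb, from 276 to 112 at 2 h and from 327 to 139 at 4 h between neighbouring positions. From 78780000 to 78790000, 8 positions ranged from 25 to 112 at 2 h and 6 from 30 to 139 at 4 h. From 78790000 to 78800000, 8 ranged from 11 to 63 at 2 h and 7 from 12 to 58 at 4 h. The last Pol II position of the window stood above these, with 173 at 78801043 at 2 h and 160 at 78801037 at 4 h, where untreated cells had 39 at 78800987. Beyond it the window held no Pol II position at any time.

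Joined where gaps were at most 2 kb, the longest Pol II tract of the window was 1.76 kb at 0 h, 17.9 kb at 2 h (15 positions) and 25 kb at 4 h (21 positions). Tracts at least as long made up 53.5% of the 0 h tracts of the genome, 2.32% of those at 2 h and 1.16% at 4 h. With gaps of up to 5 kb joined, 49 of the 53 positions at 2 h and 47 of the 54 at 4 h fell into a tract of 68.4 kb, against 4.9 kb at 0 h. At that gap, tracts at least as long made up 41.6% of the 0 h tracts, 1.17% of those at 2 h and 1.26% at 4 h. The tract length thus depends strongly on the gap allowed. The window was chosen around a Pol II position of 4 h with none at 0 h. The short tracts at 0 h and the long ones later thus describe it and support nothing.

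The Pol II counts of all positions in the window summed to 139 at 0 h, 8324 at 2 h and 8353 at 4 h. When the genome was divided into 11709 windows of 140 kb in step with this one, no other window had a sum as large at 2 or 4 h, and 22.4% had at least the sum of this one at 0 h. The grid centres on this locus and cuts others. With windows placed every 10 kb, those at 1 other place, from 119160000 to 119350000 on chromosome 11, reached larger sums, up to 9290 at 2 h and 9061 at 4 h.

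Pol II positions of 2 and 4 h mostly recurred at nearly the same place, so the 2 and 4 h heights could be followed pair by pair. In all, 47 pairs lay under 500 bp apart, with a median distance of 39 bp, and 39 of the 47 were at most 100 bp apart. Only 6 of the 54 positions at 4 h had no partner at 2 h, where 32.3% of the whole 4 h list had none, and 6 of the 53 at 2 h had none at 4 h, where 32.0% had none. At 4 h 19 pairs were higher than at 2 h, 26 were lower and 2 were equal.

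The pairs that were lower at 4 h lay mostly in the first 25 kb, and those that were higher lay mostly 27 to 48 kb on. Between 78740000 and 78750000 all 8 pairs were lower at 4 h, and their summed counts went from 1888 to 1563, a ratio of 0.828 (95% exact interval 0.774 to 0.886, covering counting error only). Between 78770000 and 78780000 all 6 pairs were higher, with sums of 1553 and 1734 and a ratio of 1.12 (1.04 to 1.2). These intervals do not overlap; the steps were picked after the profile had been seen, and each time is 1 library. The steps between them had ratios of 0.951 (0.885 to 1.02) and 1.02 (0.951 to 1.1), so the ratio went up step by step from 78740000 to 78780000. This did not hold along the whole window. The step from 78730000 had a ratio of 0.872, and those from 78780000, 78790000 and 78800000 had 1.18, 0.829 and 0.925.

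At single positions the same shift was visible. Position 78741446 had 330 at 2 h and its partner 78741441 had 254 at 4 h, a ratio of 0.77. Position 78742550 had 250 and its partner 187, a ratio of 0.748. At the far end, 78777135 had 299 at 2 h and 78777117 had 337 at 4 h, a ratio of 1.13, and 78778880 had 276 against 327, a ratio of 1.18. Within each list, the first tall position was 1.2 times (1.03 to 1.4) the height of the one 40 kb on at 2 h, and 0.967 times (0.828 to 1.13) at 4 h. The far position was picked as the tallest of the far end at 4 h, a choice that by itself favours a lower ratio at 4 h. The intervals of these 2 single-position ratios overlap, so that pair alone does not show the shift beyond counting error.

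There were 29 pairs with a 2 h count of at least 150 in the first 45 kb. Their ratio of 4 h to 2 h ran from 0.731, in a pair 460 bp apart, to 1.18. It correlated with position along the chromosome with Pearson's r of 0.89 and Spearman's rho of 0.91, a description over neighbouring positions of the same 2 libraries. These limits were set after the values had been seen. With the position at 63.9 kb added r was 0.72 over 30 pairs, and over all 47 pairs of the window, low counts included, it was 0.28. In the whole lists, shared positions with a 2 h count of at least 150 had a median ratio of 0.848 (2447 pairs). Only 5 Pol II tracts of the genome had at least 10 such pairs, this one included with its r of 0.72, and the median absolute r of the 5 was 0.27. At this locus, gaps of up to 2 kb split the 30 pairs over several tracts, while gaps of up to 5 kb joined them in 1.

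**Figure D2:**
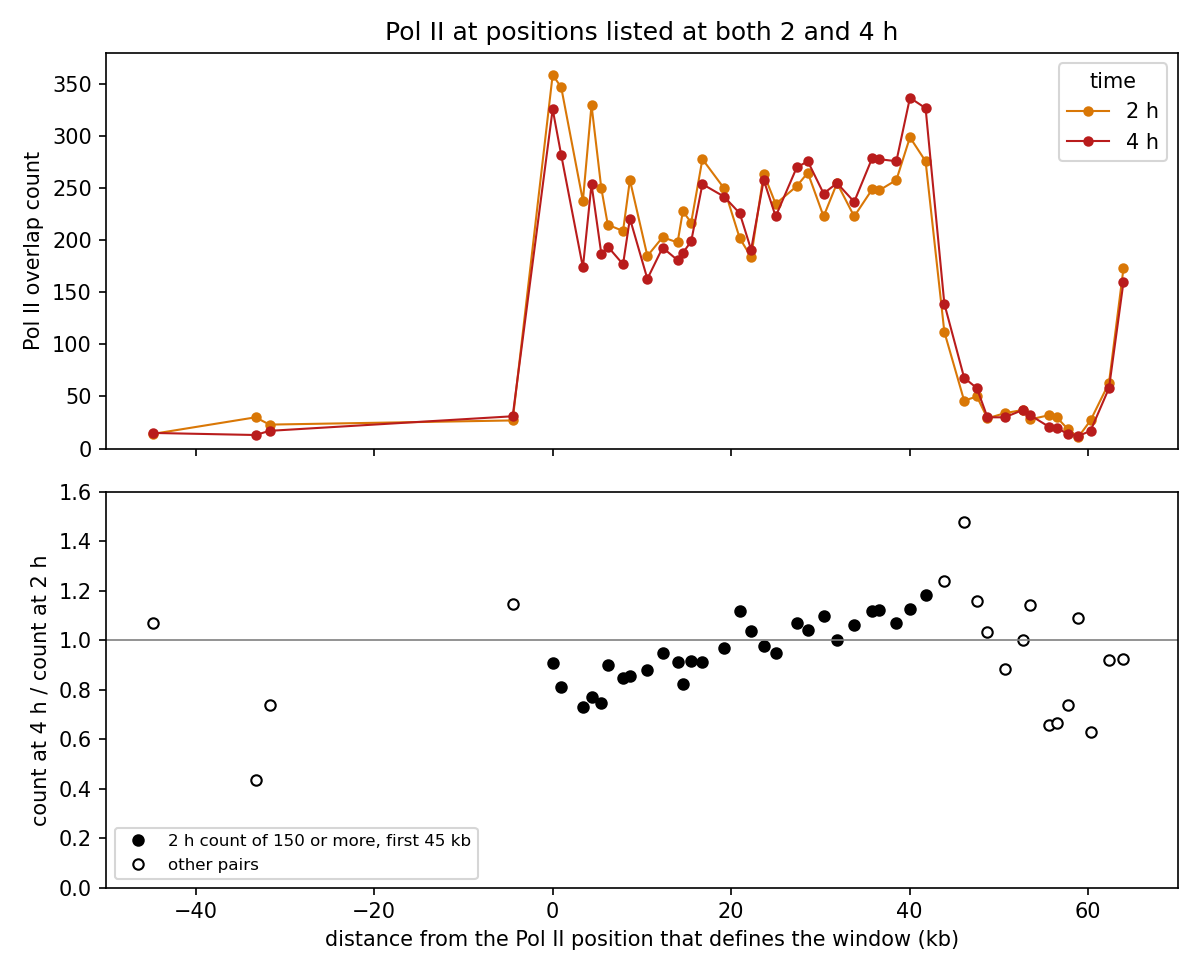
Pol II overlap counts at the 47 positions listed at both 2 and 4 h (top) and the ratio of the 4 h to the 2 h count (bottom), against distance in kb from position 78737090. Filled points are the 29 pairs with a 2 h count of at least 150 in the first 45 kb. Open points are the other pairs, which scatter more. The filled ratios were 0.908 at 0 kb, lowest at 3.39 kb (0.731, in a pair 460 bp apart) and highest at 41.8 kb (1.18).

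H3K4me3 at this locus was low before stimulation and high at 4 h. Untreated cells had a cluster from 78736258 to 78739238 with a maximum count of 21 and a second from 78739381 to 78742248 with 24, heights that 75.6% and 72.1% of the 0 h clusters reached. At 4 h a single cluster from 78736167 to 78743698 covered both, with a maximum of 176, reached by 31.5% of the 4 h list. The maximum was thus 7.33 times the higher of the pair at 0 h. Of the 18608 clusters of 0 h with an overlapping cluster at 4 h, 0.559% had a ratio as large, and the median ratio was 1. Among the 823 such clusters with a 0 h count of 21 to 24 it was 0.608%.

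The tallest H3K4me3 cluster of the window at 0 h served as a reference within each list. It spanned 78797982 to 78801865 with a maximum of 201 at 0 h, and 78795901 to 78802096 with 246 at 4 h, a ratio of 1.22. The cluster over position 78737090 was 0.119 times as high as this neighbour at 0 h (95% exact interval 0.0747 to 0.183) and 0.715 times at 4 h (0.586 to 0.872). The intervals do not overlap and cover counting error only, with 1 library at each time.

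At 4 h H3K4me3 also appeared along the Pol II stretch. Clusters with no counterpart at 0 h spanned 78743764 to 78752032 with a maximum of 12, 78763908 to 78766826 with 11 and 78766876 to 78770928 with 15. These are 3 of the 5 clusters of the window at 4 h, where 5.07% of the whole 4 h list had no 0 h counterpart. All 3 were among the lowest clusters of their list, which starts at 11. With them, the length covered by H3K4me3 in the window went from 11.5 kb at 0 h to 29 kb at 4 h.

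A further site lay on the lower side. There the 0 h list had an H3K4me3 cluster from 78702780 to 78704513 with a maximum of 27, and the 4 h list had none within 30 kb of it. It was the only 1 of the 4 clusters at 0 h without a counterpart, where 13.1% of the whole 0 h list had none. Pol II was absent there at 0 h and was listed at 78703701 with 30 and 78705335 with 23 at 2 h. At 4 h there were 5 positions from 78703061 to 78706003, with counts of 13 to 19. Jmjd3 was listed at 78703367 and 78705433 with 10 each. The site thus had Pol II and Jmjd3 after stimulation at low counts, while the H3K4me3 list no longer held it.

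Jmjd3 was dense over the locus and highest where Pol II began. The window held 13 Jmjd3 positions, and 12 of the 11709 windows (0.102%), this one included, held as many. Windows rich in Pol II often held Jmjd3. Of the 117 windows (1%) with the largest Pol II sums at 4 h, 104 held any, with a median of 4, and 8 held at least 13, this one included. The tallest, 78737180 with a count of 33, was reached by 2.64% of the Jmjd3 list and lay 46 bp from the 359-count Pol II position of 2 h. The next, 78737993 with 27, was reached by 4.27% and lay 36 bp from the 347-count position. Both lay inside the H3K4me3 clusters of both times.

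Counts further along the stretch were lower, though they did not fall steadily. Position 78739503 had 10, 78740447 had 13, 78741410 had 14 and 78744875 had 11. Positions 78745945, 78747545, 78756562 and 78767395 each had 9, the lowest count in the Jmjd3 list, so these last 4 are at its limit of listing. On the higher side, 78800865 had 13 and lay in the tall neighbouring H3K4me3 cluster, 122 bp from the 39-count Pol II position of untreated cells.

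Jmjd3 positions were compared with those of Pol II and H3K4me3. Of the 13 Jmjd3 positions, 12 had a Pol II position of 2 h under 500 bp away, where 80.7% of the whole Jmjd3 list had one, and all 13 had one at 4 h, where 78.6% of the list had one. Only 1 of the 13, at 78800865, had a Pol II position at 0 h, where 67.0% of the list had one. The shares at 2 and 4 h were near those of the list. The low number at 0 h follows from the choice of a window around a Pol II position with none at 0 h, and nothing is read from it. An H3K4me3 cluster was at 7 of the 13 at 0 h and 10 of the 13 at 4 h, where 83.3% and 84.0% of the list had one. Jmjd3 and Pol II at 2 h came from the same time point, and those at 0 h are from untreated cells.

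Jmjd3 positions of this locus also lay near H3K27me3. Of the 13, 5 had an H3K27me3 position of 0 h under 500 bp away, where 12.0% of the Jmjd3 list had one, and 8 had one at 4 h, where 11.0% had one. The closest at 0 h was between Jmjd3 at 78741410 and H3K27me3 at 78741442, 32 bp apart. All of these were among the 10 Jmjd3 positions from 78737180 to 78767395. Margins of 500 bp around H3K27me3 positions covered 25.1% of that span at 0 h and 64.1% at 4 h. With H3K27me3 listed so densely there, the shares of the whole list are not a like comparison. The members share 1 locus and are not independent of each other.

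Untreated cells had 11 H3K27me3 positions in the window, all between 78740546 and 78770536, within the stretch that held no Pol II at 0 h and high Pol II at 2 h. The tallest was 78741442 with a count of 55, reached by 3.85% of the 0 h list. Beside it were 78740546 with 25, 78743267 with 13 and 78745734 with 15. Further on were 78756888 with 13, 78762016 with 16, 78765660 with 14, 78767212 with 11, 78768452 with 13, 78769206 with 24 and 78770536 with 11. The mark thus had a peak 4.35 kb from position 78737090, inside the second H3K4me3 cluster of untreated cells, and a lower group around 30 kb.

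At 4 h 28 H3K27me3 positions were listed, with counts of 10 to 28. In the first 9 kb, 78738022 had 10, 78739690 had 11, 78740479 had 12, 78741349 had 18, 78742540 had 16, 78743199 had 13, 78744999 had 16 and 78745646 had 13. From 14.6 to 24.9 kb there were 10 positions: 78751704 and 78752525 with 10, 78753795 with 11, 78755161 with 10, 78756231 with 15, 78756768 with 16, 78758004 with 12, 78759743 with 10, 78760857 with 15 and 78761966 with 21. The former peak no longer stood out from its neighbours. From 27.4 to 34.4 kb the counts were 21 at 78764508, 28 at 78765721, 20 at 78766304, 19 at 78767424, 12 at 78768331, 21 at 78769084 and 13 at 78771517. Outside the stretch, 78720348 had 10, 78726741 had 11 and 78819804 had 10. The highest count had moved to 28.6 kb.

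The pair at the 0 h peak showed the largest relative difference of the window. Position 78741442 had 55 at 0 h and its partner 78741349, 93 bp away, had 18 at 4 h, a ratio of 0.327. Among all 42807 H3K27me3 positions of 0 h with a 4 h partner under 500 bp away, the median ratio was 1.27 and 0.0187% (8 positions) had a ratio as low. Among the 2266 with a 0 h count of 44 to 66 it was 0.132% (3 positions). This position was singled out as the tallest of the window at 0 h, a choice that by itself favours a lower value at 4 h, and the comparison with pairs of like height bears the same choice of height. Its neighbour 78740546 had 25 and its partner 12, a ratio of 0.48.

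The other pairs did not follow. Of the 10 pairs in the window, 5 were lower at 4 h, 4 were higher and 1 was equal. At 28.6 kb the count was 14 at 0 h and 28 at 4 h, a ratio of 2, and at 78767212 it was 11 against 19 at its partner, a ratio of 1.73. Only 1 of the 11 positions of 0 h had no partner at 4 h, where 28.3% of the whole list had none. Of the 28 positions at 4 h, 18 had no partner at 0 h, where 51.7% of the list had none, and the 4 h list is the longer, with 89093 positions against 59684. An H3K4me3 cluster was at 2 of the 11 H3K27me3 positions at 0 h, where 15.9% of the whole list had one, and at 15 of the 28 at 4 h, where 11.6% had one. Of these 15, all from 78744999 on lay in H3K4me3 clusters with maxima of 11 to 15, in a list that starts at 11. That part of the count thus rests on clusters at or near the limit of listing. At 4 h H3K27me3 was thus listed over much of the first 34.4 kb, with none between 78745646 and 78751704. The count was lower at the place of the 0 h peak and higher at 28.6 kb. Several of the 28 positions had a count of 10, the lowest of the 4 h list. Cut to the length of the 0 h list, the 4 h list held 21 positions in the window.

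H3K27me3 and Pol II were listed at the same places in the stretch at 4 h. Of the 25 H3K27me3 positions from 78738022 to 78771517 at 4 h, 16 were under 100 bp from a Pol II position of 4 h, where such margins covered 15.1% of the span, and the median distance was 78 bp. In the whole list 1.01% were as close. Under 500 bp it was 22 of the 25, where such margins covered 69.8% of the span, and 22 of all 28. In the whole list 2.10% had a Pol II position under 500 bp away. With Pol II listed so densely here, that share is not a like comparison. At 0 h, 5 of the 11 H3K27me3 positions were under 100 bp from a place where Pol II was listed at 2 h, where such margins covered 13.9% of the span, although no Pol II position of 0 h lay there. Most 4 h H3K27me3 positions of this stretch thus lay where Pol II was also listed, and the part of Pol II in that list was not tested.

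**Figure D3:**
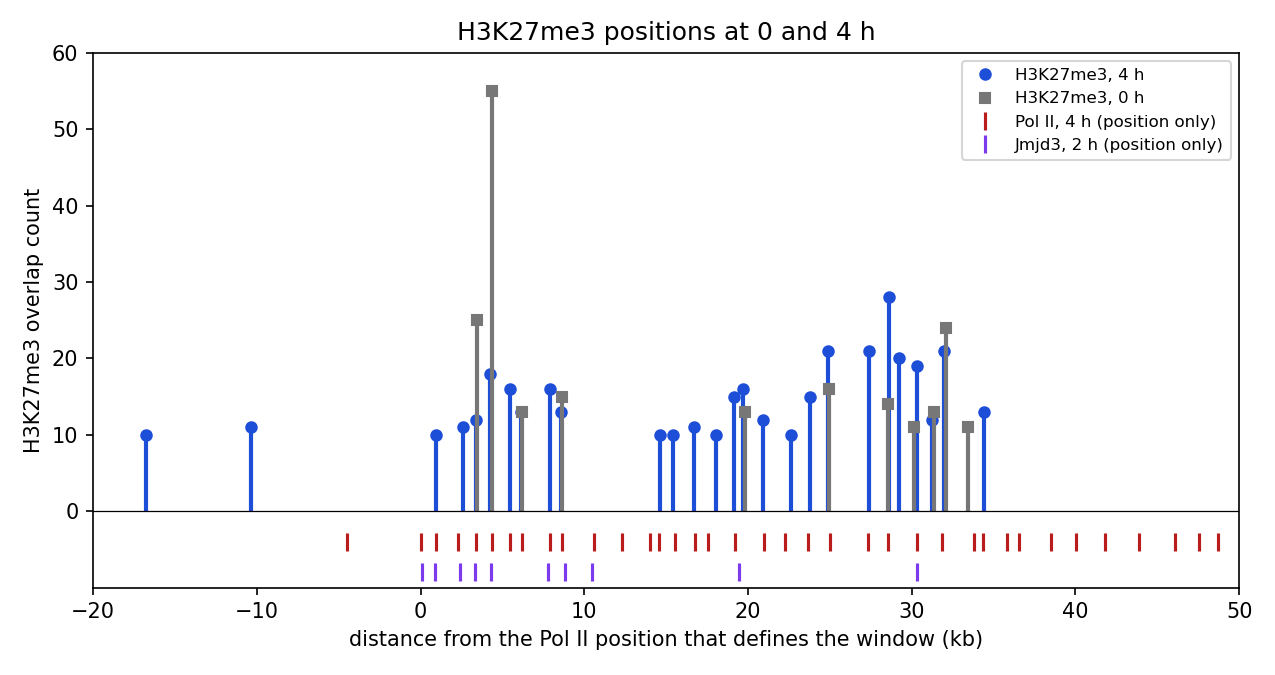
H3K27me3 overlap counts at 0 h (grey squares) and 4 h (blue circles) against distance in kb from position 78737090, with ticks below 0 that mark Pol II positions of 4 h (red) and Jmjd3 positions of 2 h (violet) without their counts. The 0 h count of 55 at 4.35 kb stands against 18 at 4 h, while around 28.6 kb the 4 h counts reach 28.

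The window was set beside those holding the tallest Pol II positions of the genome that had no 0 h partner. At 2 h that position was 93423253 on chromosome 5 with a count of 397, and at 4 h it was 83346597 on chromosome 11 with 374. Pol II sums in the chromosome 5 window (93380000 to 93520000) were 218, 4566 and 2000 at 0, 2 and 4 h. In the chromosome 11 window (83300000 to 83440000) they were 898, 2770 and 2753. The locus of Nos2 thus had the lowest sum of the 3 at 0 h and the highest at 2 and 4 h, and like the chromosome 11 window it had nearly equal sums at 2 and 4 h. The Nos2 window was chosen from its Pol II at 4 h against 0 h, and the grid centres on it and may cut the other loci. Nothing is read from the order of these sums. All 3 share the same libraries, and no test of the difference was possible.

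The number of H3K27me3 positions differed between these windows. The Nos2 window had 11 positions at 0 h and 28 at 4 h, the chromosome 5 window had 5 and 6, and the chromosome 11 window had none at either time. Jmjd3 numbers were close, at 13, 15 and 12. Among the 117 windows (1%) with the largest Pol II sums at 4 h, 57 had any H3K27me3 position at 0 h, 14 had at least 11 and 8 had at least 28 at 4 h, this window included. Over all 11709 windows, 14.1% had at least 11 at 0 h and 7.81% had at least 28 at 4 h, so these counts were near the share of all windows.

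**Figure D4:**
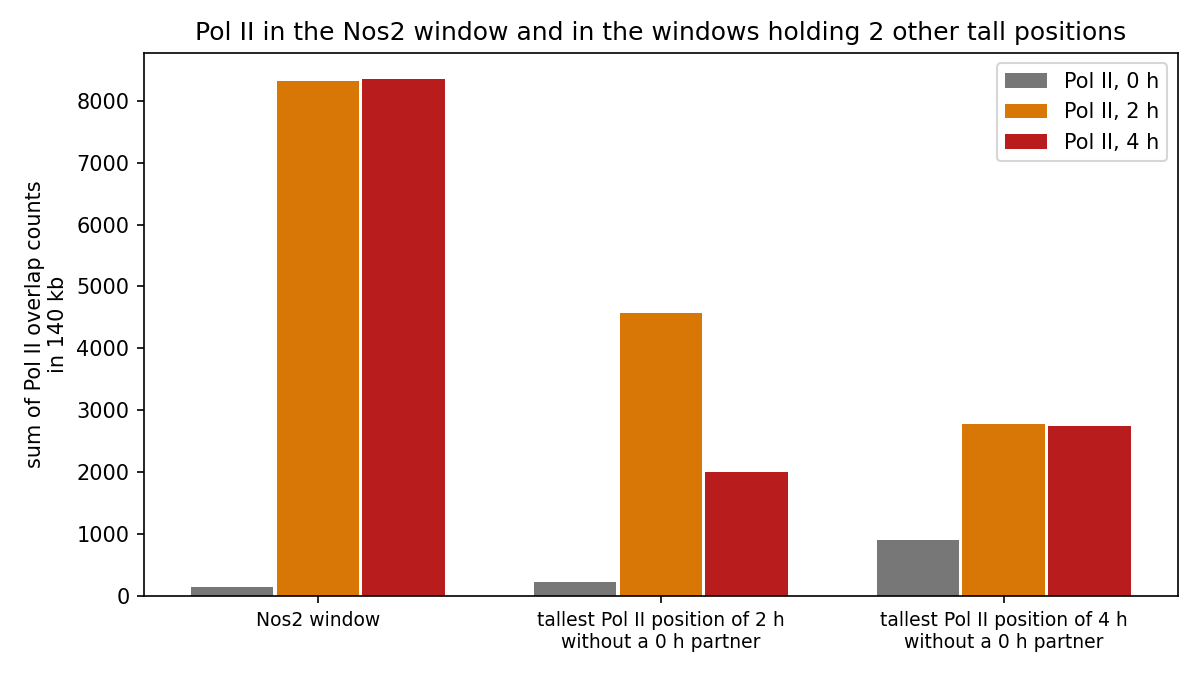
Sum of the Pol II overlap counts in 140 kb at 0 h (grey), 2 h (orange) and 4 h (red) for the Nos2 window and the windows with the tallest Pol II position without a 0 h partner at 2 h (chromosome 5) and at 4 h (chromosome 11). Bars are sums of single libraries with no replicates. The Nos2 window has 139, 8324 and 8353.

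The most similar windows were sought by the rank of their summed counts in each of the 8 lists, with the Euclidean distance between the 8 rank shares as the measure. The nearest was 10640000 to 10780000 on chromosome 16, at a distance of 0.131, with 10 Jmjd3 positions, 31 and 39 H3K27me3 positions at 0 and 4 h, and Pol II sums of 93, 1585 and 1156 at 0, 2 and 4 h. Like the Nos2 window it had a Pol II sum at 0 h far below its sums at 2 and 4 h, and many Jmjd3 and H3K27me3 positions. Its Pol II sums at 2 and 4 h were several times lower than those of the Nos2 window. The next 4 were at distances of 0.167 to 0.18. They began at 72100000 (chromosome 11), 10920000 (chromosome 16), 87640000 (chromosome 6) and 98140000 (chromosome 8). They held 1 or 2 Jmjd3 positions each. Ranks do not show how far the Pol II sum of the Nos2 window lay above the rest.

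The edges of the window cut through no tract. The nearest features outside were a Jmjd3 position with a count of 9 at 78676734, 3.27 kb below the lower edge, and an H3K27me3 position of 0 h with a count of 10 at 78674370, 5.63 kb below it. Just inside, the first feature on the lower side was a Pol II position of 4 h with a count of 11 at 78689133, and the last on the higher side was the H3K27me3 position at 78819804 with 10. Above the higher edge the first feature was a Pol II position of 2 h with a count of 15 at 78839711, 19.7 kb away.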

How the data were processed

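ChIP-seq lists of 8 libraries, 1 per antibody and time, were used as the authors deposited them. Each gives an overlap count per peak, an unscaled signal that is deposited as whole numbers per the file headers. H3K4me3 is listed as intervals and the rest as single positions. Coordinates are mm8 per the submitters' processing notes. The sources used here name no aligner, peak caller, threshold or control.

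Positions under 500 bp apart counted as shared, a position within 250 bp of a cluster as in it, and clusters as shared where they overlapped. Pol II tracts joined gaps of up to 2 kb, except where a wider gap is given. Comparison windows of 140 kb held at least 1 listed feature. Intervals are exact Clopper-Pearson intervals at 95%, turned into ratios; they cover counting error only. Every feature inside the window was kept, and similar windows were named by rank distance (the nearest 5). The window and these choices were made with earlier results of these data known. The functions were tested on simulated data. A Nos2 promoter sequence is not printed. Scripts ran in Python 3.11.15 with scipy 1.17.1, pandas 2.3.3 and numpy 2.4.6; figures were drawn with matplotlib 3.10.9. Alternatives changed the shared distance, gap, lowest count, list length and window edges. The window grid and the pairings were varied after seeing the data.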

Additional observations from a re-analysis of the deposited data

How the results depend on the processing

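The numbers of Pol II and H3K27me3 positions, of Pol II positions without a 0 h partner, and of Jmjd3 positions in H3K4me3 clusters stayed within 1.5 times of their values under each other lowest count, list length, window edge and distance tried. The length of the longest Pol II tract did not: with gaps of up to 1 kb it was 0.583 kb at 0 h, 1.53 kb at 2 h and 2.94 kb at 4 h, and with gaps of up to 5 kb it was 4.9, 68.4 and 68.4 kb. With only H3K4me3 clusters of at least the median count of their list, 1 cluster (3.88 kb) was left at 0 h and 2 (13.7 kb) at 4 h, since fewer clusters enter. All 6 Jmjd3 positions of the window above the list median had Pol II at 2 h, where 80.7% of the whole list had it. The number is lower again since fewer enter. With windows every 10 kb, 7 windows at 2 h and 6 at 4 h, this one included, had at least its Pol II sum. The correlation of position with the 4 h to 2 h ratio was 0.91 over the tall pairs at most 100 bp apart. No paired analysis was possible because each group is 1 library. Low counts of 9 to 11 lie at the limit of listing, so an absent position may lie just below it.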
